A study of Macaca mulatta with 24 samples.

Results

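Salt and water handling by the colon was followed through 10 genes that code for its main sodium, chloride and potassium transport proteins, in colon of rhesus macaques after total-body irradiation (TBI). The members were taken by name: SCNN1A, SCNN1B, SCNN1G, SLC26A3 and SLC9A3 for absorption, SLC12A2, CFTR and KCNN4 for secretion, and BEST4 and HSD11B2. Of these 10 genes, 9 were found, by 10 of the 43603 different probes of the array, and all 10 probes passed the filter on dim signals. The probe of KCNN4 carries a provisional symbol in the deposited tables and was matched through its RefSeq gene ID, and HSD11B2 was read by 2 probes. No probe was found for SLC9A3, the sodium/hydrogen exchanger of the apical membrane, so that step of absorption was not analysed here. Colon from 24 young adult male rhesus macaques was hybridized, 1 array per animal. The 4 controls were sham-irradiated (dose 0, labelled day 4) and served as the baseline of every day. Gamma radiation from a cobalt-60 source was given at 6.7 or 7.4 Gy, and colon was taken 4 days later (4 animals at each dose), 7 days later (4 at each dose) or 12 days later (2 at each dose). RNA came from whole tissue, so muscle, stroma and epithelium were measured together, and fewer cells of a type and less RNA per cell cannot be told apart. No control was taken on days 7 and 12, so the time since sham treatment and radiation cannot be told apart there.

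The colon absorbs sodium by electroneutral exchange, in which SLC9A3 takes up sodium for hydrogen ions while SLC26A3 (DRA, the anion exchanger mutated in congenital chloride diarrhoea) takes up chloride for bicarbonate, and by the epithelial sodium channel ENaC, built of an alpha (SCNN1A), a beta (SCNN1B) and a gamma (SCNN1G) subunit. ENaC in the distal colon answers to aldosterone through the mineralocorticoid receptor. HSD11B2 inactivates cortisol in the same cells and so keeps that receptor free for aldosterone. Secretion runs the other way: SLC12A2 (NKCC1) loads chloride into the cell across the basolateral membrane, CFTR lets it out at the apical side, and the calcium-activated potassium channel KCNN4 keeps up the driving voltage. BEST4 is an anion channel that marks a small class of absorptive cells. Absorptive proteins are mainly those of mature cells near the surface, whereas CFTR and SLC12A2 are best known from the crypts.

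Signals are given as log2 values relative to the 75th percentile of the same array, so that 1 unit is a 2-fold difference, and a level can be set against other levels of the same probe only. Differences were tested with limma over all probes. A call means an adjusted p (Benjamini-Hochberg) under 0.05 together with a difference of at least 2-fold. The 75th percentile of the intensities lay between 558 and 971 on the 24 arrays, and 66.7% to 85.0% of the spots were well above background. Arrays of 1 group correlated at 0.959 to 0.983. The arrays lay on 6 slides of 4 positions, scanned on 2 days. All arrays of 7.4 Gy day 4 and of day 12 were scanned on the second day, and every other group was split over both. All controls were in position 1, and all animals of days 7 and 12 in positions 3 and 4, so position and group cannot be told apart for those days. On day 4 the 6.7 Gy arrays were in positions 1 and 2, and the 7.4 Gy arrays all in position 2. The 7.4 Gy day 4 group thus shared no position with the controls, and only the 6.7 Gy day 4 group links these positions. Whole-epithelium markers were present on the arrays: the mean level of 7 of 8 listed genes (EPCAM, KRT8, KRT18, KRT19, VIL1, CDX1 and CDX2) was 4.19 to 4.30 in controls.

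On day 4, 2 of the 4 absorption members found (SLC26A3 and SCNN1A) fell at each dose, SCNN1G rose at 7.4 Gy, SCNN1B was not called, and none of the 3 secretion members was called. HSD11B2 fell at both doses and BEST4 at 7.4 Gy. At 7.4 Gy, SLC26A3 fell 19.97-fold, SCNN1A 5.77-fold, HSD11B2 5.65-fold and BEST4 5.94-fold, while SCNN1G rose 4.38-fold. At 6.7 Gy, SLC26A3 fell 7.76-fold, HSD11B2 2.99-fold and SCNN1A 2.55-fold. SLC12A2, CFTR and KCNN4 differed from control by less than 2-fold in each of the 6 irradiated groups. By day 7 and on day 12 no member differed from control by a call. In all, 3 of 9 members were called at 6.7 Gy, against 3.64% of all probes, and all 3 were lower, against 1.83% lower among all probes. At 7.4 Gy the calls were 5 of 9 against 7.04% of all probes, with 4 lower against 3.65% and 1 higher against 3.4%. The median difference of the 9 members was -0.45 at 6.7 Gy and -0.82 at 7.4 Gy, and that of all probes -0.07 at both doses. Both comparisons used the same 4 controls.

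**Figure D1:**
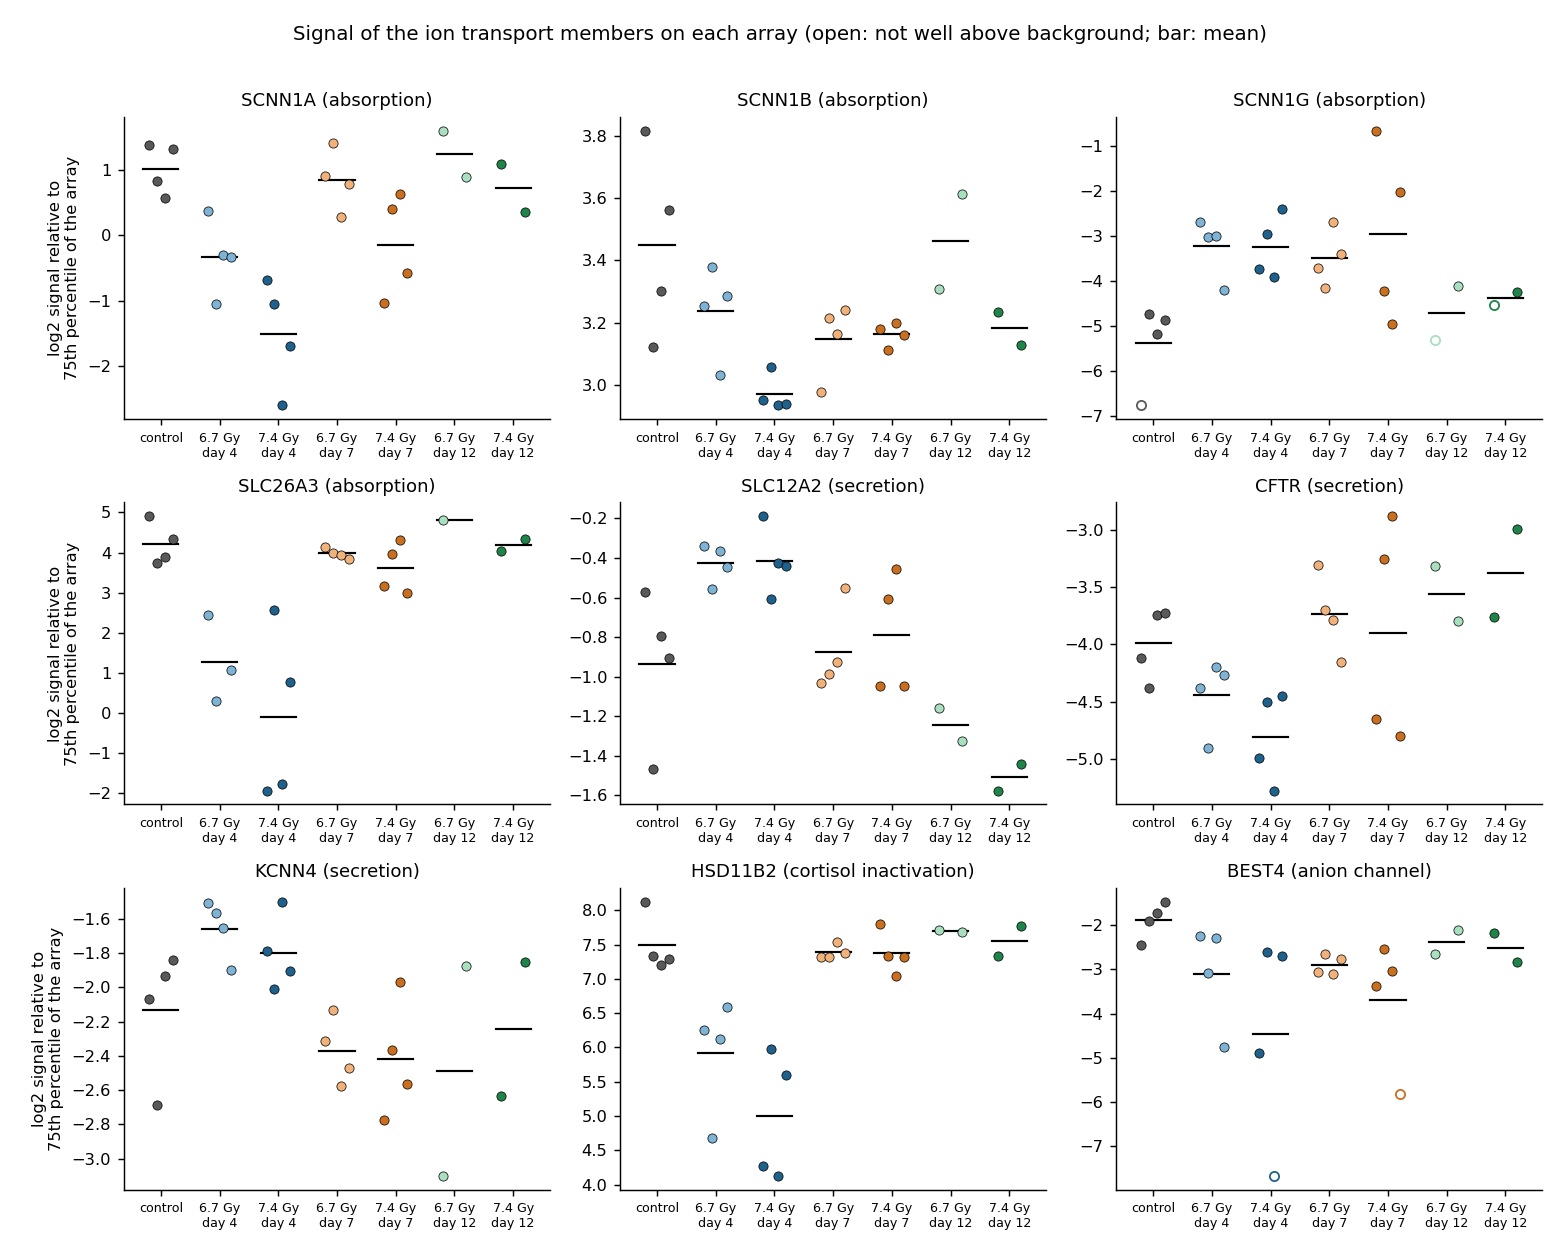
Signal of the 9 members on each of the 24 arrays (y axis: log2 signal relative to the 75th percentile of the array; x axis: control and 6 irradiated groups; each point is 1 animal, open where the spot was not well above background, bars are means). SLC26A3 and HSD11B2 lie below all controls on each measured day 4 array and within or near the control range on days 7 and 12, and SCNN1G lies above its controls on day 4.

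SLC26A3, the chloride/bicarbonate exchanger, had the largest difference among the members. Its 4 controls read 4.91, 3.75, 3.90 and 4.35. On day 4 after 6.7 Gy, 3 arrays read 2.44, 0.29 and 1.08, and the spot of replicate 3 was marked as an outlier by the scanner software and left out. On day 4 after 7.4 Gy the arrays read -1.95, 2.57, -1.78 and 0.78. Every irradiated array of day 4 was below every control, but the 7.4 Gy animals spread widely, with 1 close to the highest 6.7 Gy animal and 2 far below the rest. The difference from control was -2.96 ± 0.79 (SE, n = 3 against 4, limma adjusted p = 0.0258) at 6.7 Gy and -4.32 ± 0.73 (n = 4 against 4, adjusted p = 0.000733) at 7.4 Gy. On the slides that held a control and a day 4 animal, the 3 measured pairs differed by -2.67, -5.84 and -1.78. With the slide as a block the 6.7 Gy difference was -2.54 and no longer passed (adjusted p = 0.137), and with the array position as a block the 7.4 Gy difference was -4.03 (adjusted p = 0.116). The 6.7 Gy call was also lost without control replicate 1 or 4 or 6.7 Gy day 4 replicate 2 or 4, with adjusted p between 0.0547 and 0.0989.

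SCNN1A, the pore-forming alpha subunit of ENaC, fell at both doses. Controls read 1.38, 0.83, 0.56 and 1.32. Animals of 6.7 Gy day 4 read 0.38, -1.06, -0.30 and -0.33, and those of 7.4 Gy day 4 read -0.68, -1.05, -2.61 and -1.70. No day 4 array reached the lowest control. The 7.4 Gy difference was -2.53 ± 0.42 (SE, n = 4 against 4, limma adjusted p = 0.000485). At 6.7 Gy it was -1.35 ± 0.42, just past the threshold (adjusted p = 0.0475), and that call was lost under 12 of 18 other settings of the analysis with the sign kept in all 18. It held without 6.7 Gy day 4 replicate 1 (adjusted p = 0.0407) and was lost without any other of the 8 arrays compared, with adjusted p between 0.0549 and 0.131. The 4 pairs of a day 4 animal and a control on 1 slide differed by -1.68, -1.16, -1.24 and -2.37. Within the 2 scan days the 6.7 Gy difference was -1.42 and -1.28, and the 7.4 Gy difference, measurable on the second day only, was -2.45.

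SCNN1B, the beta subunit, stayed within a narrow band. Its controls read 3.82, 3.12, 3.30 and 3.56, and the 4 arrays of 7.4 Gy day 4 read 2.95, 3.06, 2.93 and 2.94, all below the lowest control. That difference of -0.48 ± 0.13 (SE, n = 4 against 4) had an adjusted p of 0.0145 in limma but was 1.40-fold, under the 2-fold limit. With spike-in scaling it was -0.21 (adjusted p = 0.285), and relative to the epithelium markers it turned to 0.27 (adjusted p = 0.307). At 6.7 Gy the difference was -0.21 (95% interval -0.49 to 0.06). Over all 24 arrays SCNN1B ran from 2.93 to 3.82, the smallest range among the members.

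SCNN1G, the gamma subunit, was the one called member that was higher on day 4. Controls read -6.76, -4.74, -5.17 and -4.86, and the first of these was not well above background. Day 4 arrays read -2.68, -3.04, -3.0 and -4.20 at 6.7 Gy and -3.74, -2.97, -3.91 and -2.40 at 7.4 Gy. All 8 were above the highest control. The difference was 2.13 ± 0.70 (SE, n = 4 against 4, limma adjusted p = 0.0375) at 7.4 Gy and 2.15 ± 0.70 at 6.7 Gy, where the adjusted p of 0.0563 missed the threshold and passed without 6.7 Gy day 4 replicate 4 (2.48, adjusted p = 0.0449). The probe was dim, and the size depended on how background was handled: with normexp correction the 7.4 Gy difference was 0.71 (adjusted p = 0.239). It also moved with the block fitted: 1.71 with scan day (adjusted p = 0.109), 1.67 with slide (0.142) and 2.87 with array position (0.153). Without control replicate 1 it was 1.67 (adjusted p = 0.121), and without control replicate 3 or 4 or 7.4 Gy day 4 replicate 1, 2 or 4 the adjusted p was between 0.0501 and 0.105. In the RefSeq annotation of the T2T-MMU8v2.0 assembly, SCNN1G and SCNN1B are neighbours on 1 chromosome, with no protein-coding gene starting between them, and SCNN1A is on another. Of the 3 subunits of 1 channel, alpha was called lower at both doses on day 4 and gamma higher at 7.4 Gy only. Beta was lower at 7.4 Gy too, by -0.48, under the 2-fold limit. The gamma call was lost under 7 of 18 other settings of the analysis.

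HSD11B2, which turns cortisol into cortisone, fell at both doses. Controls read 8.13, 7.34, 7.20 and 7.29, the 6.7 Gy day 4 arrays 6.25, 4.68, 6.13 and 6.59, and the 7.4 Gy day 4 arrays 4.27, 5.97, 4.12 and 5.6. Again no irradiated array of day 4 reached a control. Differences were -1.58 ± 0.39 (SE, n = 4 against 4, limma adjusted p = 0.0161) and -2.50 ± 0.39 (adjusted p = 0.000294). Its second probe, dimmer in every group, gave -1.53 and -2.50, both called. Pairs on 1 slide differed by -2.0 and -0.75 at 6.7 Gy and by -2.93 and -1.32 at 7.4 Gy. Control replicate 1 and 6.7 Gy day 4 replicate 2 each carried the 6.7 Gy call: without either one the adjusted p was 0.0525 and 0.0511, with differences of -1.37 and -1.17. That call was also lost with the slide as a block (-1.49, adjusted p = 0.0777), when only the compared groups were fitted (adjusted p = 0.0773) and under the methods' t-test (a test of each probe that the study's methods name, run here with equal variances, adjusted p = 0.135).

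BEST4 fell at 7.4 Gy on day 4, with 1 animal setting much of the size. Controls read -2.46, -1.91, -1.72 and -1.47. The 7.4 Gy day 4 arrays read -4.88, -2.60, -7.67 and -2.69, of which the third was not well above background, and those of 6.7 Gy read -2.26, -3.08, -2.31 and -4.75. The 7.4 Gy arrays were all below the controls and the 6.7 Gy arrays overlapped them. The difference was -2.57 ± 0.86 (SE, n = 4 against 4, limma adjusted p = 0.0400) at 7.4 Gy and -1.21 ± 0.86 (adjusted p = 0.397) at 6.7 Gy. Without 7.4 Gy day 4 replicate 3 the 7.4 Gy difference was -1.5 (adjusted p = 0.143), and leaving out any of the 4 controls or replicate 1 also took the adjusted p above the threshold, to between 0.0521 and 0.0953. The call was lost under 6 of 18 other settings, among them the array position as a block (-1.71, adjusted p = 0.521). BEST4 was also below all its controls in every animal of day 7, at -3.07, -2.67, -3.11 and -2.77 after 6.7 Gy and -3.38, -2.54, -3.03 and -5.82 after 7.4 Gy, but neither group passed the test (adjusted p = 0.762 and 0.448), and the spot of 7.4 Gy day 7 replicate 4, at -5.82, was not well above background.

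Among the secretion members, SLC12A2, which loads the cell with chloride, read -0.57, -1.47, -0.79 and -0.91 in controls, -0.34, -0.56, -0.37 and -0.44 at 6.7 Gy day 4, and -0.19, -0.61, -0.43 and -0.44 at 7.4 Gy day 4. Of the 8 day 4 arrays, 7 were above the highest control. The differences were 0.51 ± 0.18 (SE, limma adjusted p = 0.0733) and 0.52 ± 0.18 (adjusted p = 0.0439), or 1.42-fold and 1.43-fold, so neither was a call. KCNN4 read -2.07, -2.68, -1.94 and -1.84 in controls, -1.51, -1.57, -1.65 and -1.90 at 6.7 Gy day 4, and -1.79, -2.01, -1.5 and -1.91 at 7.4 Gy day 4. Its differences of 0.47 (95% interval -0.04 to 0.99) and 0.33 (-0.19 to 0.85) were not called. CFTR read -4.11, -4.38, -3.74 and -3.72 in controls, -4.38, -4.91, -4.20 and -4.26 at 6.7 Gy day 4, and -4.99, -4.50, -5.28 and -4.45 at 7.4 Gy day 4. Its spots were dim though well above background, the lowest of them at -5.28, where the dimmest such signal of the same array was -5.48. It was the one secretory member whose day 4 means lay below control, by -0.45 (95% interval -1.19 to 0.29) and -0.82 (-1.56 to -0.08, adjusted p = 0.109). Within the first scan day, however, the 6.7 Gy difference of CFTR was 0.01, and within the second it was -0.91.

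**Figure D2:**
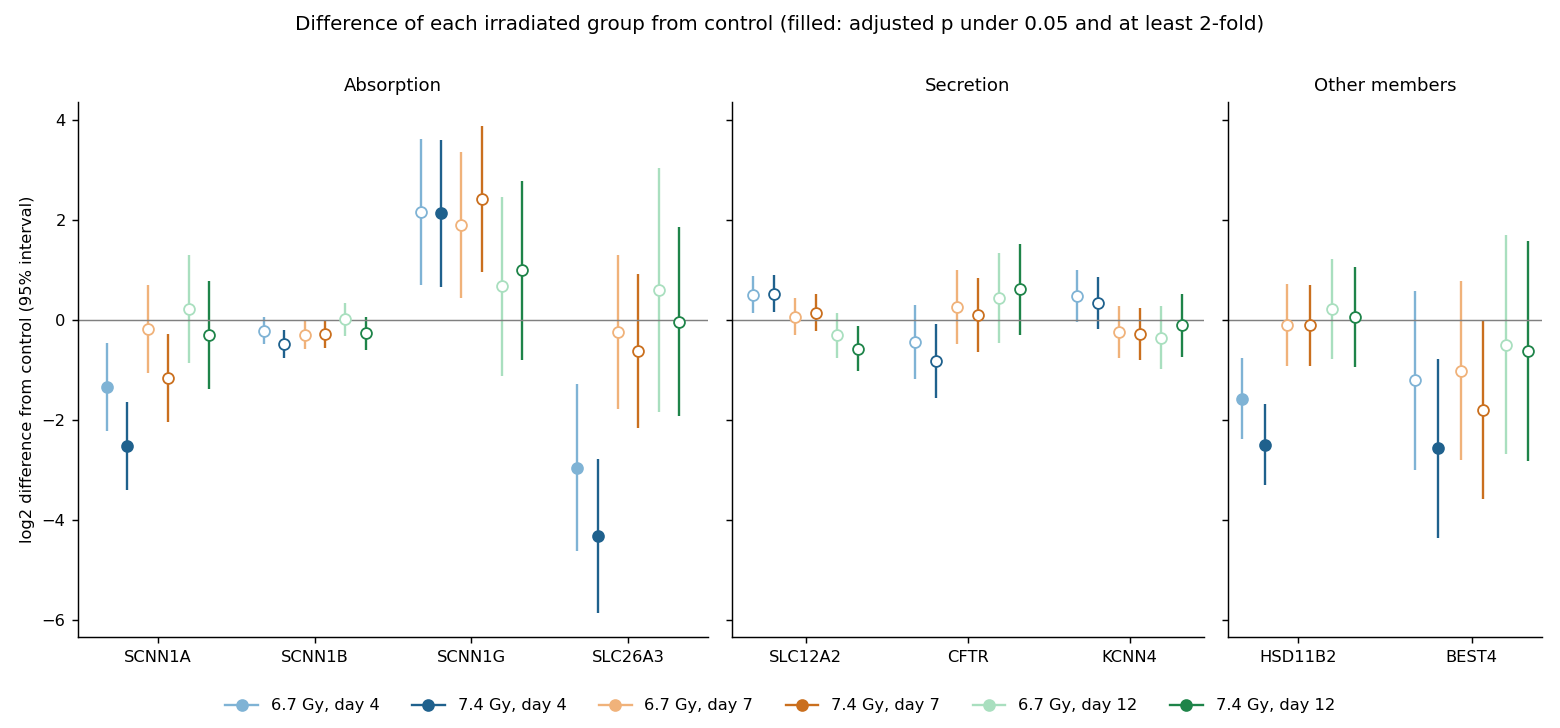
Difference of each irradiated group from control for the 9 members (y axis: log2 difference with its 95% interval from limma; filled points were called). The filled points of SCNN1A, SLC26A3, HSD11B2 and BEST4 lie below 0, between -1.35 and -4.32, 1 filled point of SCNN1G lies at 2.13, and the panel of secretion members has no filled point.

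Absorption and secretion were also set against each other. For each array, the mean of the 3 secretion members was taken from the mean of the 4 absorption members, each member relative to its own control mean, as a description without a test. The difference was -0.38 to 0.40 in controls. It was -0.26, -0.94 and -1.02 on the 3 measured arrays of 6.7 Gy day 4, and -1.71, -0.40, -2.12 and -1.01 at 7.4 Gy day 4. Of these 7 arrays, 6 lay below every control, 7.4 Gy replicate 2 only barely, and 6.7 Gy replicate 1 lay inside the control range. The absorption mean was -0.60 ± 0.53 (SD, n = 3) at 6.7 Gy and -1.30 ± 0.78 (n = 4) at 7.4 Gy, and the secretion mean 0.18 ± 0.13 (n = 4) and 0.01 ± 0.06 (n = 4). The secretion mean averages members on both sides of control (at 7.4 Gy CFTR at -0.82, SLC12A2 at 0.52 and KCNN4 at 0.33), so a value near 0 does not show that they did not move. SCNN1G, whose day 4 values were higher, offset part of this: without it the group means were -1.63 in place of -0.74 at 6.7 Gy and -2.45 in place of -1.31 at 7.4 Gy, and all 7 arrays lay below the lowest control of -0.51. On day 7 the difference was 0.12 to 0.42 at 6.7 Gy and -0.61 to 0.80 at 7.4 Gy, and the 3 measured arrays of day 12 gave -0.19 to 0.45. Without SCNN1G the sign turned on day 7: the means were -0.27 in place of 0.27 at 6.7 Gy, inside the control range, and -0.67 in place of 0.10 at 7.4 Gy, where the 4 arrays (-0.77 to -0.59) lay below every control. On day 12 the means without it were 0.52 (1 array) and -0.18 (2 arrays), in place of 0.45 and 0.12.

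**Figure D3:**
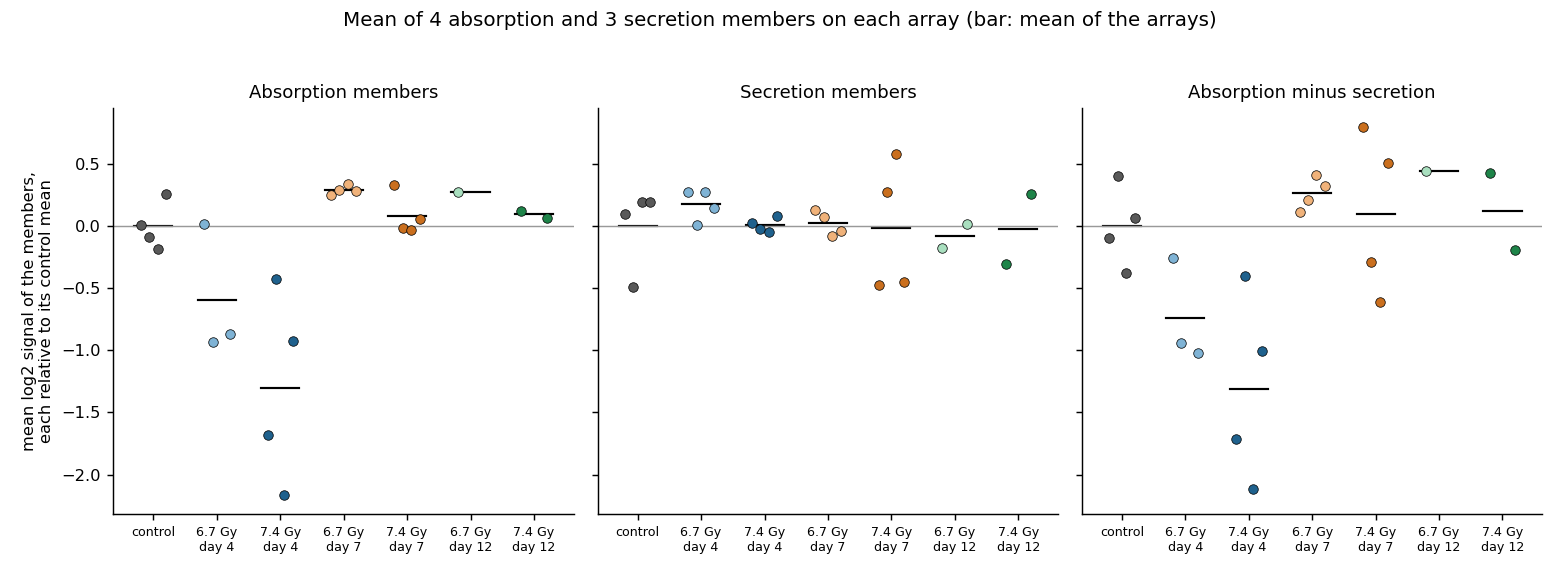
Mean of the 4 absorption members, mean of the 3 secretion members and their difference on each array (y axis: mean log2 signal relative to the control mean; points are animals, bars group means). Absorption values of 7.4 Gy day 4 lie between -2.17 and -0.43 while the secretion values of the same animals lie between -0.05 and 0.08.

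The 7.4 Gy animals of day 7 showed the widest spread of the secretion mean, from -0.47 to 0.58. The same 2 animals were the lower ones of the 4 in all 3 secretion members, a split read off the values themselves. CFTR read -4.66 and -4.80 in replicates 1 and 4 and -3.26 and -2.88 in replicates 2 and 3, against -4.38 to -3.72 in controls. SLC12A2 read -1.05 in both replicates 1 and 4 and -0.61 and -0.46 in replicates 2 and 3, and KCNN4 -2.77 and -2.57 against -2.37 and -1.97. Controls read -1.47 to -0.57 for SLC12A2 and -2.68 to -1.84 for KCNN4. Both lower SLC12A2 values and the KCNN4 value of -2.57 thus lay inside the control range. SCNN1G ran the other way. It read -0.68 and -2.03 in replicates 1 and 4 and -4.22 and -4.95 in the other two. SCNN1A was lower in replicates 1 and 4, at -1.04 and -0.58 against 0.41 and 0.63, and SLC26A3 was likewise lower in replicates 1 and 4, at 3.17 and 3.00, than in replicates 2 and 3, at 3.96 and 4.32. HSD11B2 was not lower in replicates 1 and 4, at 7.81 and 7.33, than in replicates 2 and 3, at 7.33 and 7.05. The 4 animals were on 4 different slides, and each scan day held 1 animal with a low and 1 with a high CFTR value. Over the whole group no member differed from control by a call. The gamma subunit came nearest, at 2.42 ± 0.70 (SE, n = 4 against 4, limma adjusted p = 0.144), and without replicate 3 it was called, at 3.08 (adjusted p = 0.0327).

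The course after day 4 was tested directly by comparing days, with both doses averaged. From day 4 to day 7, SLC26A3 rose by 3.21 ± 0.54 (SE, n = 8 against 7, limma adjusted p = 0.000468), HSD11B2 by 1.93 ± 0.28 (n = 8 against 8, adjusted p = 9.5e-05) and SCNN1A by 1.27 ± 0.30 (adjusted p = 0.00431). These 3 of 9 members were called, all higher, against 4.44% of all probes in either direction and 2.38% higher. For SLC26A3 and HSD11B2 every day 7 array was above every day 4 array. The secretory members passed the adjusted p in this comparison without reaching 2-fold: KCNN4 by -0.67 (adjusted p = 0.00913), SLC12A2 by -0.41 (adjusted p = 0.0210) and CFTR by 0.81 (adjusted p = 0.0232).

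From day 4 to day 12, 4 of 9 members were called, all higher, against 6.49% of all probes and 3.58% higher. SLC26A3 rose by 3.91 ± 0.75 (SE, n = 3 against 7, limma adjusted p = 0.00134), HSD11B2 by 2.18 ± 0.34 (n = 4 against 8, adjusted p = 0.000208), SCNN1A by 1.90 ± 0.36 (adjusted p = 0.00111) and CFTR by 1.16 ± 0.31 (adjusted p = 0.0103). On day 12 the SLC26A3 arrays read 4.82 at 6.7 Gy, where the other spot was left out as an outlier, and 4.04 and 4.33 at 7.4 Gy. HSD11B2 read 7.72 and 7.69 at 6.7 Gy and 7.34 and 7.77 at 7.4 Gy, inside the control range. The upper end of that range was control replicate 1 at 8.13, and the other controls read 7.20 to 7.34. Its second probe read 3.36 and 3.39 at 6.7 Gy and 3.13 and 3.28 at 7.4 Gy, above all its controls (2.57 to 3.07) but without a call. CFTR on day 12, at -3.32 and -3.79 after 6.7 Gy and -3.76 and -2.99 after 7.4 Gy, was above every day 4 array, and its call was lost without 6.7 Gy day 12 replicate 1 (adjusted p = 0.0577) or 7.4 Gy day 12 replicate 2 (adjusted p = 0.0679). With normexp correction the CFTR difference was 0.92, under 2-fold, and relative to the epithelium markers it was 0.54 (adjusted p = 0.196). SLC12A2 ended lowest on day 12, at -1.16 and -1.33 after 6.7 Gy and -1.58 and -1.44 after 7.4 Gy, with all 4 arrays below all 16 arrays of days 4 and 7. At both doses SLC12A2 overlapped its controls (-1.47 to -0.57) and was not called against them (limma adjusted p = 0.895 and 0.570). Its difference from day 4 was -0.95 ± 0.15 (adjusted p = 0.000276), 1.94-fold and so just short of a call, and that from day 7 was -0.55 ± 0.15 (adjusted p = 0.196).

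Against control, no member was called by limma on day 7 at 6.7 Gy (0.317% of all probes called) or at 7.4 Gy (0.387%), and none on day 12 at 6.7 Gy (0.0183%) or at 7.4 Gy (0.0262%). At an unadjusted p under 0.05, 2 and 4 of the 9 members passed on day 7, against 9.63% and 11.1% of all probes, and 0 and 1 on day 12, against 6.54% and 6.85%. The methods' t-test called 0 members after adjustment in these 4 comparisons, and 2, 1, 0 and 0 at an unadjusted p under 0.05 with 2-fold, against 1.84%, 1.78%, 1.07% and 1.11% of all probes. With 2 animals in each day 12 group the intervals were wide: that of SLC26A3 at 7.4 Gy ran from -1.93 to 1.85 and that of BEST4 from -2.82 to 1.57. Between days 12 and 7 limma also called no member (0.107% of all probes), with 2 of 9 at an unadjusted p under 0.05 (9.58% of all probes) and 0 by the methods' t-test.

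The 2 doses were compared on each day. Limma called no member, and no probe of the whole array (0% on each day), between 7.4 and 6.7 Gy. With the array position as a block, 114 probes were called on day 4 (94 higher and 20 lower) and still 0 members. On day 4 the difference was below 0 for 8 of 9 members and above 0 for 47.0% of all probes. At an unadjusted p under 0.05, 2 members passed, against 6.22% of all probes. These were SCNN1A, at -1.18 (95% interval -2.06 to -0.30, limma adjusted p = 0.636), and HSD11B2, at -0.92 (-1.73 to -0.10, adjusted p = 0.755). The interval of SLC26A3 was -3.03 to 0.30 around -1.36. On day 7, 1 member had an unadjusted p under 0.05, SCNN1A at -0.99 (95% interval -1.87 to -0.11), against 1.9% of all probes, and on day 12, 0 did, against 3.09%. The methods' t-test called 0 members in the 3 comparisons.

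In the order of the group means, the 2 day 4 groups stood last for SCNN1A, SLC26A3, HSD11B2 and CFTR, and first for SLC12A2 and KCNN4. For SLC26A3 and HSD11B2 the step between the lower of the day 7 groups and the higher of the day 4 groups was the only one between neighbours without overlap of the arrays. SCNN1G had its only such step between 6.7 Gy day 7 and the next lower mean, that of 7.4 Gy day 12. Groups further apart in its order still overlapped: 7.4 Gy day 7 replicate 3 read -4.95, inside the control range of -6.76 to -4.74. SLC12A2 had its only step without overlap between 6.7 Gy day 12 and 7.4 Gy day 12, with 2 arrays in each group. Neighbouring groups overlapped at every step for SCNN1A, SCNN1B, CFTR, KCNN4 and BEST4. The share of all probes with such steps was not determined, and with so few arrays in a group they can arise by chance. BEST4 stood highest in controls and lower in all 6 irradiated groups, by -0.50 to -2.57.

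Across the 24 arrays, which share the same animals and the same groups, the members' signals were aligned to different degrees. SLC26A3 and HSD11B2 correlated at r = 0.94, SLC26A3 and SCNN1A at 0.82, and SLC26A3 and CFTR at 0.77 (22 arrays where SLC26A3 enters). SLC12A2 and KCNN4 correlated at 0.58 with each other and at -0.59 and -0.56 with SLC26A3. SCNN1G correlated at -0.61 with SCNN1A and at -0.50 with SCNN1B. Among 12696 other genes, those with the signal most like each member were also ranked by r. Nearest to SLC26A3 were CHP2 (0.97), LGALS4 (0.96) and ITM2C (0.96), and nearest to HSD11B2 were NXPE4 (0.96), CLDN8 (0.96), a tight-junction protein, and VIL1 (0.95), a protein of the microvilli. SCNN1A was most like VIPR1 (0.90), the receptor of vasoactive intestinal peptide, closely followed by UGT2B33 (0.88) and PROM2 (0.88). CFTR was most like GUCY2C (0.91), the guanylate cyclase that opens CFTR by way of cyclic GMP, closely followed by ERBB2 (0.89) and NBR1 (0.89). BEST4 was most like CA7 (0.86), a carbonic anhydrase known from the same cells, and GUCA2B (0.82). SCNN1G was most like PLK1 (0.84), a mitotic kinase. For SCNN1B, SLC12A2 and KCNN4 the nearest genes were SRSF8 (0.87), RAB11FIP2 (0.78) and OR51E1 (0.82).

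Beyond the members, 47 genes of ion transport and its control were listed by role, of which 42 had a probe and 41 were tested. At 6.7 Gy on day 4, 12 were called lower and 1 higher, and at 7.4 Gy 13 lower and 2 higher, with medians of -0.46 and -0.61. Of all probes, 1.83% were called lower at 6.7 Gy (3.64% in either direction). At 7.4 Gy 3.65% of all probes were called lower and 3.4% higher. These shares are the background of the role lists and the markers below. On days 7 and 12 against control, 1 was called in the 4 comparisons: TSC22D3, a glucocorticoid-induced gene, was lower by -1.04 at 7.4 Gy on day 7. In these comparisons 0.0183% to 0.387% of all probes were called.

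Among the 13 tested genes of sodium absorption, 3 were called lower at 6.7 Gy and 4 at 7.4 Gy on day 4, and 0 higher. CHP2, a calcineurin B-like partner of sodium/hydrogen exchangers, fell at both doses. It read 2.77 to 3.13 in controls, -1.71 to 0.30 at 6.7 Gy and -5.91 to -0.84 at 7.4 Gy, differences of -3.35 and -6.44, and its second probe gave -3.37 and -6.53. On 1 of 4 arrays of 7.4 Gy day 4 it was not well above background. SLC9A3R1 (NHERF1), the scaffold that holds SLC9A3 at the brush border, fell (-1.18 and -1.33), as did SLC4A4, the basolateral sodium bicarbonate cotransporter (-1.51 and -2.32), though the second SLC4A4 probe passed at 7.4 Gy only, at -1.61. SLC9A2, another apical exchanger, fell at 7.4 Gy (-1.01). The sodium pump beta subunits ATP1B1 and ATP1B3 and the ENaC ubiquitin ligase NEDD4L were not called, with differences of -0.66 to 0.35 on day 4, although a dimmer NEDD4L probe was called at 7.4 Gy, at -1.14.

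The genes of the corticosteroid response showed calls in both directions. NR3C2, the mineralocorticoid receptor that HSD11B2 guards, fell on day 4 (-1.33 at 6.7 Gy and -1.80 at 7.4 Gy). HSD11B1, the enzyme that runs the reaction of HSD11B2 backwards and makes cortisol, rose by 1.22 at 7.4 Gy, and its second probe was called at both doses, at 2.45 and 2.69. The glucocorticoid receptor NR3C1 (0.38 and 0.63) and SGK1, the kinase by which aldosterone raises ENaC (-0.50 and -0.37), were not called. Of the 5 tested genes, 1 was called lower at 6.7 Gy, and 1 lower and 1 higher at 7.4 Gy.

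Of 6 tested genes of chloride and bicarbonate transport, 3 were called lower at each dose on day 4 and 0 higher. These were BEST2, a bicarbonate channel known from colonic goblet cells (-3.24 and -5.39), the sulfate exchanger SLC26A2 (-2.63 and -3.06), and CLCN2, a basolateral chloride channel (-1.46 and -1.96). On 1 of 4 arrays of 7.4 Gy day 4 BEST2 was not well above background, and SLC26A2 was not on 1 of 4 arrays of each dose. SLC26A4 (pendrin), SLC4A2 and CLCA1 were not called on day 4.

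Among the genes that control secretion, the peptides guanylin (GUCA2A) and uroguanylin (GUCA2B), which act on GUCY2C, fell (-2.07 and -3.47 for GUCA2A, -3.37 and -4.93 for GUCA2B), as did GUCY2C itself (-1.61 and -1.98). VIPR1 fell too (-1.12 and -1.81). These 4 of 11 tested genes were called at each dose, 0 were higher, and the kinases between receptor and transporter, PRKG2, WNK1, STK39 and OXSR1, were not called, STK39 at -1.17 and -1.10. Potassium handling gave 1 call each way at both doses out of 6 tested genes: KCNE3, the beta subunit that keeps the KCNQ1 channel open during chloride secretion, rose by 1.40 and 1.45, and KCNK5, a potassium leak channel, fell (-1.12 and -1.67). KCNE3 read -2.24 to -1.79 in controls and -1.08 to -0.20 on the 8 day 4 arrays, without overlap. KCNQ1 itself stood at 0.54 and 0.35 without a call. From day 4 to day 7, 14 listed genes were called higher and 1 lower, and from day 4 to day 12, 14 higher and 3 lower (KCNE3, HSD11B1 and ADORA2B, an adenosine receptor that drives secretion). Of all probes, 2.38% and 3.58% were called higher in these comparisons, and 4.44% and 6.49% in either direction.

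**Figure D4:**
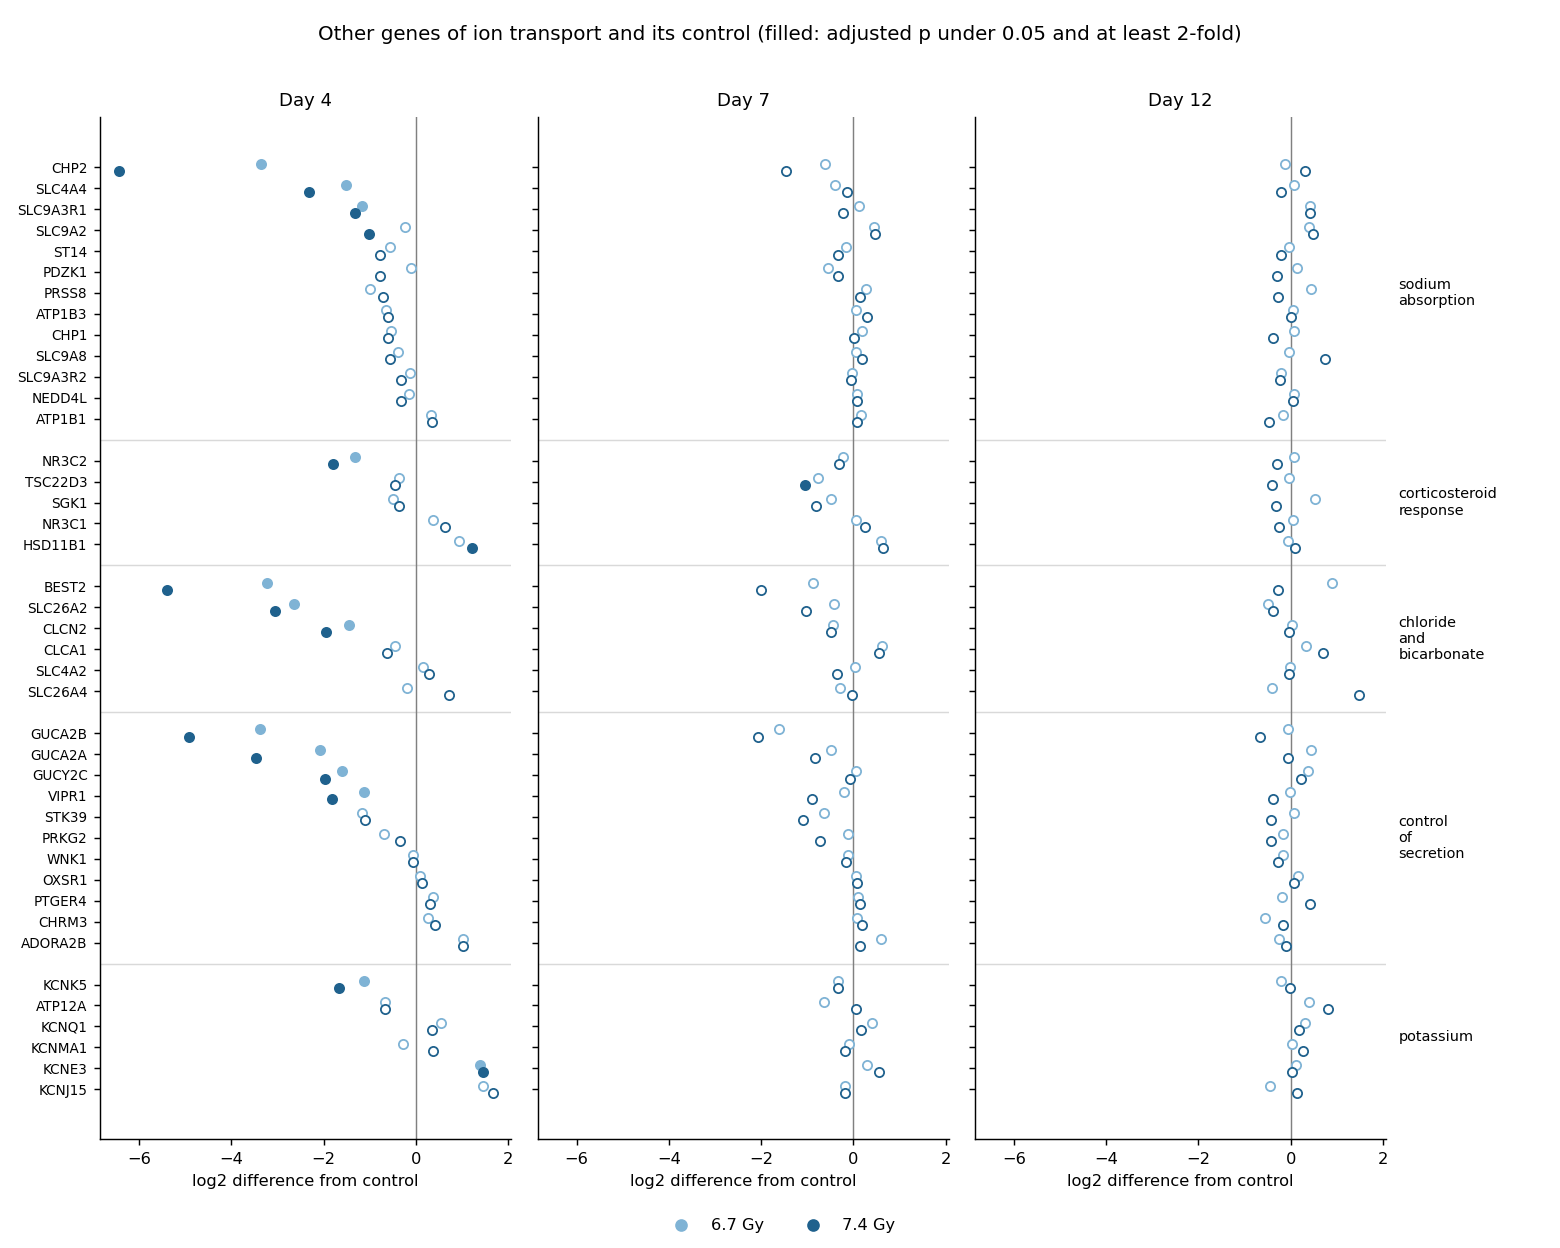
Differences from control of 41 other genes of ion transport and its control, by role (x axis: log2 difference; 6.7 Gy in light blue, 7.4 Gy in dark blue; filled points were called). On day 4 the filled points reach from -6.44 (CHP2, not well above background on 1 of 4 arrays) to 1.45 (KCNE3), and on days 7 and 12 TSC22D3 on day 7 is the single filled point.

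Markers of the epithelium and of other cells moved on day 4 as well. The mean level of the 7 epithelium markers, 4.19 to 4.30 in controls, was 3.12 to 3.92 at 6.7 Gy and 3.31 to 3.69 at 7.4 Gy, below all controls, and 2 of the 7 (VIL1 and CDX2) were called lower at each dose. It was 3.93 to 4.41 on day 7 and 4.09 to 4.41 on day 12. Of 7 of 8 listed markers of surface colonocytes with a tested probe (SLC26A2 among them), 4 and 5 were called lower on day 4, and their mean level was -0.39 to 1.15 and -1.09 to 1.18 against 2.64 to 3.19 in controls. The shares of all probes called lower were 1.83% at 6.7 Gy and 3.65% at 7.4 Gy. Relative to the epithelium markers of the same array, a scaling added after the data were seen, the day 4 differences of SLC26A3 were -2.35 and -3.57, of HSD11B2 -1.0 and -1.75 and of SCNN1A -0.77 and -1.78. The calls of SCNN1A at 6.7 Gy (adjusted p = 0.164) and of BEST4 at 7.4 Gy (-1.82, adjusted p = 0.0843) were lost on that scale, as was that of SCNN1A from day 4 to day 7 (0.60, adjusted p = 0.0812). SCNN1G was called at 6.7 Gy too (2.73, adjusted p = 0.00512). On that scale SLC12A2 (1.08 and 1.27) and KCNN4 (1.05 and 1.08) were called higher at both doses. CFTR stood at 0.13 and -0.07 on that scale. That scaling moved the median of all probes by 0.58 and 0.75, so it shifts every gene upward on day 4. At 7.4 Gy on day 4, 2 of 3 tested neutrophil markers (S100A8 and S100A9) and 2 of 5 fibroblast markers (COL1A2 and COL3A1) were called higher. The share of all probes called higher there was 3.4%. At 6.7 Gy 0 markers of these 2 lists were called. Of the smooth muscle markers 0 of 3, and of the leukocyte markers 0 of 6, were called on day 4. Markers of cycling cells were called for 1 of 5 genes at 6.7 Gy (AURKA, 1.06) and for 0 at 7.4 Gy, and those of crypt cells for 0 of 4 and for 1 of 4 (ASCL2, 1.05). Goblet cell markers were called lower for 0 of 6 and 2 of 6 genes (TFF3 and ZG16), the BEST4-cell markers for 0 of 2 and 1 of 2 (CA7, -2.70), and endothelial markers higher for 0 of 4 and 1 of 4 (VWF, 1.24). The median of the 2 BEST4-cell markers at 7.4 Gy was -1.09, as the other of them lay above control, without a call. On day 7 the leukocyte marker PTPRC, 1 of 6 tested, was called lower at both doses, at -1.53 and -1.54. Of all probes, 0.317% and 0.387% were called there. The part of cell composition in the members' differences was not tested.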

How the data were processed

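Colon RNA of 24 rhesus macaques was measured on 1-colour (Cy3) Agilent rhesus arrays, 1 per animal and without pooling. Groups came from the sample labels. A protocol label names another last day than the sample labels, which were followed. The authors' scanner files hold intensity values from Feature Extraction 11.0.1.1, background-subtracted and corrected for spatial trends per the file headers, with 0 or 1 spot flags as other columns. Raw intensity values and normalized log2 values of the same arrays were deposited as 2 tables, the second scaled to the 75th percentile of each array and centred per probe.

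Here the processed signal was taken as log2 minus the array's 75th percentile, outlier spots were left out and spots of a probe averaged. Probes well above background on at least 2 of 24 arrays were tested (38216) with limma 3.58.1 in R 4.3.3, with 1 mean for each of 7 groups over all 24 arrays and Benjamini-Hochberg adjustment over all probes. Where SLC26A3 lacked a spot, that array did not enter its fit. A gene's brightest probe stood for it. The script was tested on simulated data. Gene names came from the deposited tables and RefSeq gene IDs. All 9 members found were reported, with pathway genes named where called, and the 3 most alike genes ranked by Pearson's r. The members and the lists were chosen with earlier results of these data known.

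Alternatives covered background correction (normexp, offset 50), quantile, median and spike-in scaling, scaling to epithelium markers, the authors' table, 2 other filters, no minimum fold, the methods' t-test, fewer groups, slide, array position, scan day and replicate blocks, the mean of a gene's probes, and leaving out each array. The number of arrays limits the precision. Sequences and coordinates of the probes were not used here. Some listed pathway genes are not reported here and were left out of the list counts.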

Additional observations from a re-analysis of the deposited data

Results flagged for a closer look

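In 44 sets of a member and a group with 4 measured arrays, 2 held an array that stood apart from the other 3 by Dixon's 95% limit, about the number chance alone gives (1 in 20). SCNN1B on 7.4 Gy day 4 replicate 2 read 3.06, against 2.93 to 2.95 on the others. HSD11B2 on control replicate 1 read 8.13, against 7.20 to 7.34 on the other controls.

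Some members differed between days by a direct test of the 2 days. SLC26A3 was higher on day 7 than on day 4 by 3.21 and on day 12 by 3.91. HSD11B2 was higher by 1.93 and 2.18, and SCNN1A by 1.27 and 1.90. CFTR was higher on day 12 than on day 4 by 1.16. Day 4 and day 7 arrays of 1 dose lay in different positions of the slides, so position and day cannot be told apart there.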

How the results depend on the processing

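Over 9 members and 12 comparisons, 15 calls were made. None changed direction under the other settings, which were 18 for a call against control and 16 for a call between days. The calls between days could not be fitted with array position as a block, alone or with scan day. Of the 256 values that the settings gave for called members, 40 lost the call. The 3 calls at 6.7 Gy day 4 became 0 under the methods' t-test and with the slide as a block, 1 when only the compared groups were fitted, with the array position as a block or with position and scan day as blocks, and 5 relative to the epithelium markers. The 5 calls at 7.4 Gy day 4 became 2 under the methods' t-test or with the array position as a block, 0 with position and scan day as blocks, and 3 with the replicate block. The calls from day 4 to day 7 became 6 with no minimum fold. In these cases the cause was not tested, apart from the missing fold limit. With 1 array left out at a time, the counts ran from 0 to 3 at 6.7 Gy day 4 (0 without control replicate 1 or 6.7 Gy day 4 replicate 2, 1 without control replicate 4), 3 to 4 at 7.4 Gy day 4 (3 without control replicate 1, 3 or 4 or 7.4 Gy day 4 replicate 1), 0 to 1 at 7.4 Gy day 7 (1 without 7.4 Gy day 7 replicate 3), 3 to 3 from day 4 to day 7 and 2 to 4 from day 4 to day 12 (2 without 6.7 Gy day 12 replicate 1, which held the one SLC26A3 spot of its group), and stayed at 0 elsewhere.

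Absorption minus secretion without SCNN1G, a choice made after the data were seen, was -1.63 and -2.45 on day 4 and -0.27 and -0.67 on day 7, at 6.7 and 7.4 Gy. With all 4 absorption members the value was 0.0162 at 6.7 Gy day 7 with normexp correction. With 1 array left out, and all 4 members, it ran from -0.98 to -0.60 and -1.61 to -1.04 on day 4, from 0.14 to 0.40 and -0.13 to 0.34 on day 7, and from 0.32 to 0.58 and -0.19 to 0.43 on day 12.

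Replicate numbers did not pair the arrays: deviations of equal-numbered arrays correlated at a median of -0.01 over 40 pairs. Arrays of 1 slide did so at 0.11 over 24 pairs, and those of different slides at -0.02 over 136. With the replicate block, the calls of SCNN1A at 6.7 Gy day 4 and of SCNN1G and BEST4 at 7.4 Gy day 4 were lost (adjusted p = 0.0572, 0.0549 and 0.0515). Spike-in scaling moved the median of all probes on day 4 by 0.23 and 0.28 and the share of higher calls from 49.7% and 48.2% to 78.8% and 77.8%. Listed pathway genes called ran from 4 to 15 at 6.7 Gy day 4 and from 1 to 21 at 7.4 Gy day 4 (13 and 15 as reported). All-probe counts of 1390 and 2692 on day 4 ran from 492 to 4996 and from 589 to 9670, and those of 1698 and 2480 against days 7 and 12 from 747 to 7385 and from 1315 to 7006. SCNN1G, BEST4 and CFTR were near background, where small differences are poorly measured.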
